A study of Mus musculus with 6 samples.

Results

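The genes described here are 9 members of the JAK-STAT pathway in mouse regulatory T cells (Treg cells): 5 STAT transcription factors (Stat3, Stat4, Stat5a, Stat5b and Stat6) and 4 genes of the SOCS family of feedback inhibitors (Socs1, Socs2, Socs3 and Cish). They were taken by gene symbol from a table of 55840 genes, and each symbol matched 1 row. All 9 passed the filter on low counts, which kept 14919 genes for testing. RNA was sequenced from Treg cells of spleen and lymph nodes in 6 libraries, 3 labelled WT and 3 labelled Exon2KO. Exon2KO is the Foxp3 genotype that the series calls Foxp3 delta 2, and Foxp3 is the transcription factor that defines Treg cells. The labels call the 3 samples of each genotype biological replicates, while strain, age, sex, the way the cells were sorted, and whether animals or organs were pooled are not given in the sources used here. The count columns carry the numbers 2, 6 and 20 in both genotypes, and libraries are named below by genotype and that number.

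Cytokine receptors carry no kinase of their own and signal through bound Janus kinases, which phosphorylate STAT proteins, and these then enter the nucleus and bind DNA as dimers. Different cytokines use different STAT proteins: interleukin-2 acts mainly through STAT5A and STAT5B, interleukin-6 through STAT3, interleukin-12 through STAT4 and interleukin-4 through STAT6. STAT5 binds regulatory DNA of Foxp3 and of the interleukin-2 receptor alpha chain gene, and interleukin-2 signalling sustains Treg cells. The SOCS genes and Cish are themselves switched on by STAT proteins, and their products bind through an SH2 domain to receptors or kinases and dampen the signal. Cish and Socs2 are classical STAT5-induced genes, Socs3 is induced mainly through STAT3, and Socs1 by interferons and many cytokines.

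Many STAT dimers bind the palindrome TTCNNNGAA, which is its own reverse complement, so a search of one strand covers both. The promoters of all members but Socs2, which was therefore not searched, had an entry in the RefSeq table used here (GRCm38.p6), with 11 windows of 300 bases running from 250 bases before a transcription start to 50 bases after it. The palindrome occurred in the windows of 2 of these 8 members, Cish and Socs3. The wider form with 4 bases between TTC and GAA, which STAT6 prefers, occurred in none of them, and 6.95% of all windows hold it. Of all 32851 RefSeq promoter windows of this length, 2726 (8.30%) hold TTCNNNGAA at least once, and 150 (0.457%) hold it 2 or more times. Cish held it 2 times, 2 bases apart, and Socs3 held it 1 time. These stretches are shown because Cish was the only member with a palindrome pair, and Socs3 the only other member with a palindrome, in the windows searched. They run 5′ to 3′ on the gene's strand with the palindromes in capitals, from chr9:107296654-107296683 on the plus strand for Cish and chr11:117969502-117969530 on the minus strand for Socs3.
Cish: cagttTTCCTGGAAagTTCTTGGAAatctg
Socs3: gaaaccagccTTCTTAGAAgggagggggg
A match of letters does not show that a factor was bound there in these cells.

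Each library held 17998216 to 21003496 counts over all genes and 21183 to 22774 genes with at least 1 count. Levels are counts scaled to the library's total after TMM normalisation (CPM), and 3 counts, the most that a count of 0 allows, correspond to 0.141 to 0.169 CPM. Foxp3 stood at 783, 602 and 751 CPM in WT 2, 6 and 20 and at 826, 684 and 925 CPM in Exon2KO 2, 6 and 20, a log2 fold change of 0.19 with an edgeR adjusted p of 0.693. Counts per gene cannot show whether exon 2 is present, so this does not check the genotype label. In a principal component analysis the libraries numbered 20 stood apart from the other 4 on the first axis (34.5% of the variance), at -34.0 for WT 20 and -20.4 for Exon2KO 20 against -1.81 to 27.3, while the second axis (31.3%) separated the genotypes.

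The comparison of Exon2KO with WT asks whether losing Foxp3 exon 2 changes the level of the pathway's transcription factors and of their feedback genes. Cish was 20.8% and Socs2 21.1% lower in Exon2KO, and no Exon2KO library reached the lowest WT library for either gene. The libraries of the other 7 genes, Socs1, Socs3 and the 5 STAT genes, overlapped between the genotypes. With edgeR's quasi-likelihood test and p-values adjusted over all 14919 genes, none of the 9 members passed an adjusted p of 0.05, where 348 of all genes did (2.33%). Unadjusted, Cish and Socs2 were the 2 members under 0.05, as were 1810 of all genes. At an adjusted p of 0.05, limma-voom called none of the 9 and DESeq2 called 1, Cish. With the column number as a replicate block, which compares the 2 libraries that share a number, Cish and Socs2 passed, where 1450 of all genes did (9.72%), 864 of them lower in Exon2KO (5.79%). With the block, 4 members had an unadjusted p under 0.05, as did 3211 of all genes, and the other 2 of them, Stat5a and Socs3, were higher in Exon2KO with edgeR adjusted p of 0.190 and 0.133. Across all genes tested, 1390 (9.32%) had every Exon2KO library below every WT library, against these 2 of the 9 members. The median log2 fold change was 0.06 over the 9 members and 0.0084 over all genes tested. In bulk RNA, fewer cells expressing a gene and less RNA of it per cell cannot be told apart.

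**Figure D1:**
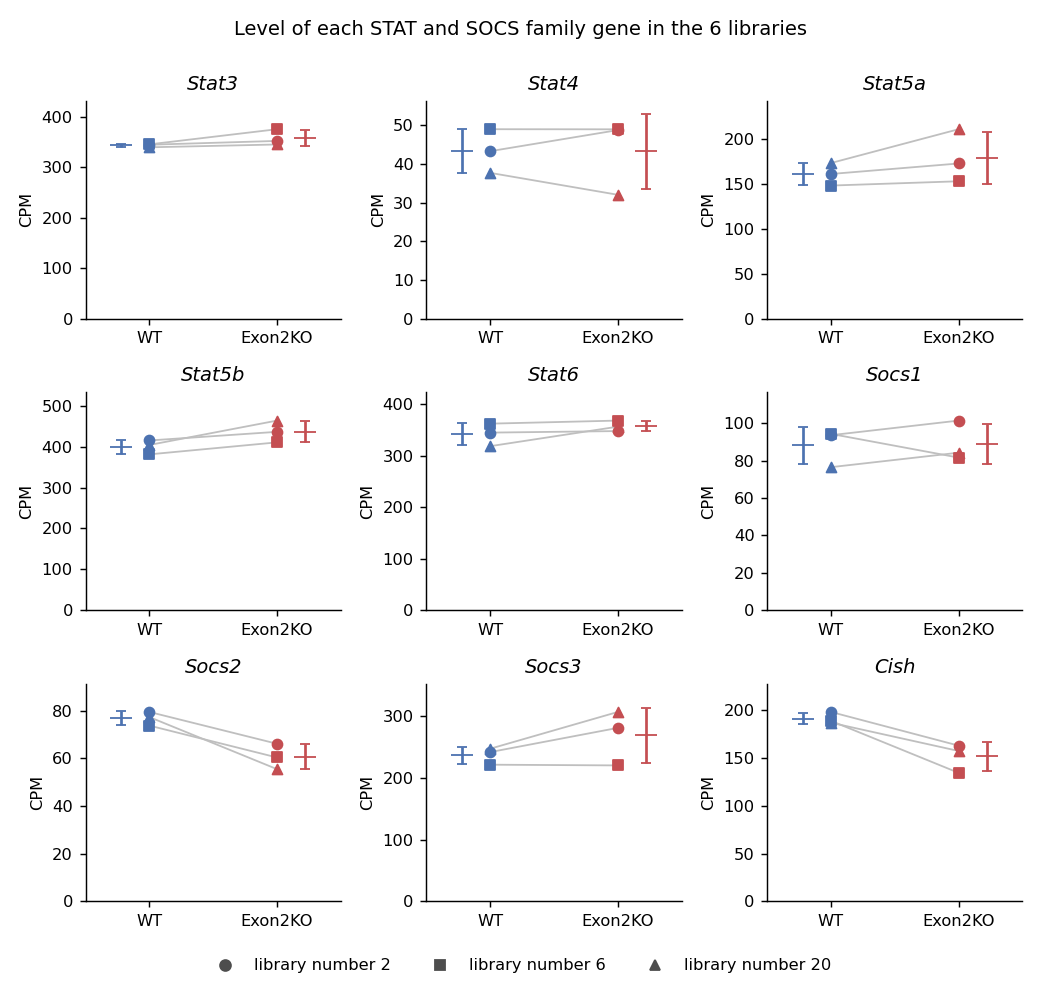
Level of each of the 9 genes in CPM in the 6 libraries, one panel per gene with its own axis, WT and Exon2KO side by side, with the mean and SD of the 3 libraries of a genotype and lines joining libraries with the same number (2, 6 or 20). Cish and Socs2 are the panels in which all 3 Exon2KO libraries lie below all 3 WT libraries.

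Of the STAT factors, STAT5A and STAT5B are near-identical proteins that carry the interleukin-2 signal. Stat5b stood at 415, 381 and 404 CPM in WT 2, 6 and 20 and at 436, 411 and 464 CPM in Exon2KO 2, 6 and 20, or 400.1 ± 17.3 against 437 ± 26.7 (SD, n = 3 each). It was higher in Exon2KO in 3 of 3 pairs, but Exon2KO 6 lay below WT 2, and the log2 fold change of 0.13 (SE 0.08, 95% interval -0.05 to 0.30) did not pass the edgeR test (adjusted p = 0.627). Stat5a stood at 161, 148 and 173 CPM in WT 2, 6 and 20 and at 172.5, 153 and 211 CPM in Exon2KO 2, 6 and 20. Exon2KO was higher in 3 of 3 pairs, but the genotypes overlapped, and Exon2KO 20 was the highest of the 6 libraries for both Stat5 genes. The log2 fold change of Stat5a was 0.15 (SE 0.12, interval -0.11 to 0.42, edgeR adjusted p = 0.736).

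Stat3, the factor downstream of interleukin-6 and related cytokines, was the steadiest member. It stood at 345, 346 and 340 CPM in WT 2, 6 and 20 and at 353, 376 and 346 CPM in Exon2KO 2, 6 and 20, with a coefficient of variation over the 6 libraries of 3.68%. Its log2 fold change was 0.06 (SE 0.07, interval -0.10 to 0.22, edgeR adjusted p = 0.857), and Exon2KO was higher in 3 of 3 pairs, most in the pair numbered 6. Stat6, the factor downstream of interleukin-4, stood at 345, 363 and 319 CPM in WT 2, 6 and 20 and at 348, 369 and 357 CPM in Exon2KO 2, 6 and 20. Exon2KO was higher in 3 of 3 pairs, the genotypes overlapped, and the log2 fold change was 0.06 (interval -0.11 to 0.24, edgeR adjusted p = 0.855).

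Stat4, the factor of interleukin-12 signalling and T helper 1 cells, was the least abundant STAT member and the most variable of the 9, with a coefficient of variation of 16.4%. It stood at 43.3, 49.0 and 37.7 CPM in WT 2, 6 and 20 and at 48.7, 48.9 and 32.0 CPM in Exon2KO 2, 6 and 20. Both libraries numbered 20 were the lowest of their genotype, and the genotype means, 43.3 ± 5.64 and 43.2 ± 9.71 CPM (SD, n = 3 each), lay closer together than the libraries of either genotype. The interval of its log2 fold change ran from -0.40 to 0.40 (edgeR adjusted p = 0.998), and the sign of the estimate, -0.0014, turned under another scaling of the libraries (0.00013 with RLE size factors). These intervals bound the change of each STAT gene and do not show that the genotypes are alike.

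Among the feedback genes, Cish encodes CIS, the SOCS-family protein named for its rapid induction by cytokines through STAT5. It stood at 198, 189 and 187 CPM in WT 2, 6 and 20 and at 163, 135 and 157.5 CPM in Exon2KO 2, 6 and 20. The 3 Exon2KO libraries were all below the lowest WT library, at 82.2%, 71.2% and 84.2% of the WT library with the same number. The means were 191.5 ± 6.03 and 152 ± 15.1 CPM (SD, n = 3 each), 20.8% lower in Exon2KO. The log2 fold change was -0.34 (SE 0.09, interval -0.53 to -0.14), with an unadjusted p of 0.0033 and an adjusted p of 0.0951 in the edgeR test and an adjusted p of 0.00247 with the replicate block. Cish also passed with no filter on low counts (edgeR adjusted p = 0.0199, where 422 of 26773 genes were called lower, 1.58%) and with DESeq2 (adjusted p = 0.0345, where 422 of 16488 were, 2.56%).

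Socs2 encodes a feedback inhibitor best known for limiting growth hormone signalling, which also runs through STAT5. It stood at 79.5, 73.7 and 77.3 CPM in WT 2, 6 and 20 and at 66.1, 60.4 and 55.5 CPM in Exon2KO 2, 6 and 20. Every Exon2KO library was below every WT library, at 83.2%, 81.9% and 71.7% of its same-numbered WT library. The means were 76.8 ± 2.89 and 60.7 ± 5.33 CPM (SD, n = 3 each), 21.1% lower. The log2 fold change was -0.34 (SE 0.09, interval -0.53 to -0.15), with an unadjusted p of 0.00282 and an adjusted p of 0.0865 in the edgeR test, against adjusted p = 0.00417 with the replicate block and 0.0366 with no filter. DESeq2 gave it an adjusted p of 0.0637. Without both libraries numbered 20, and without the block, the log2 fold change was -0.38 for Cish and -0.28 for Socs2, with edgeR adjusted p of 0.126 and 0.241.

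Socs3 encodes the inhibitor that binds the interleukin-6 receptor chain gp130. It stood at 241, 221 and 247 CPM in WT 2, 6 and 20 and at 280, 220 and 306 CPM in Exon2KO 2, 6 and 20. The pair numbered 6 was level and the others were higher in Exon2KO, so the genotypes overlapped, with a log2 fold change of 0.19 (SE 0.12, interval -0.08 to 0.45, edgeR adjusted p = 0.641). Socs1, whose product blocks Janus kinases directly and which Treg cells need to stay stable, stood at 93.5, 94.2 and 76.4 CPM in WT 2, 6 and 20 and at 101, 81.6 and 84.2 CPM in Exon2KO 2, 6 and 20. Its pairs differed in direction, and its log2 fold change was 0.016 (SE 0.11, interval -0.24 to 0.27, edgeR adjusted p = 0.983). Whether Cish and Socs2 differ in their change from Socs1 and Socs3 was not tested.

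**Figure D2:**
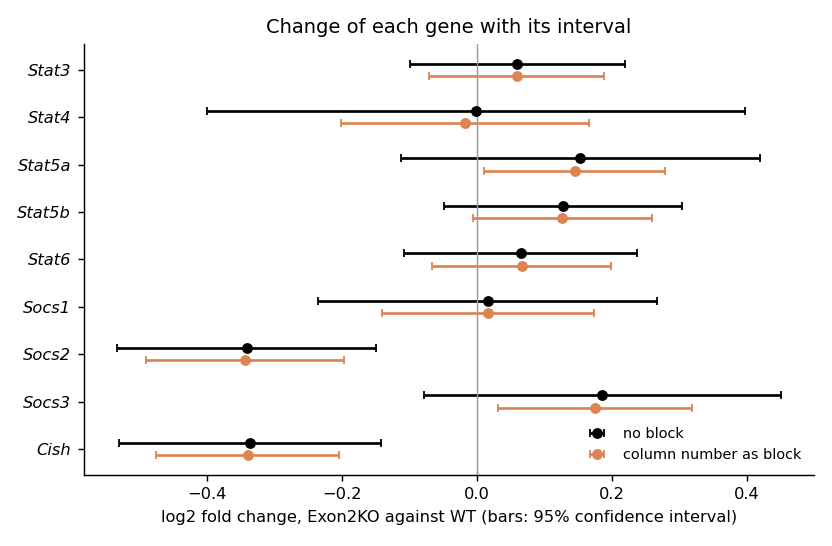
Log2 fold change of each of the 9 genes in Exon2KO against WT with its 95% interval, from the edgeR fit without a block and from the fit with a replicate block on the column number. The intervals of Cish and Socs2 lie below 0 in both fits, at -0.34 for each gene, while those of the other 7 genes cross 0 without the block, and with it all but those of Stat5a (0.01 to 0.28) and Socs3 (0.03 to 0.32) do.

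The table of the authors' own comparison gave similar values. In the authors' deposited table Cish had a log2 fold change of -0.33 with an adjusted p of 0.0350, and Socs2 -0.34 with an adjusted p of 0.0645. The authors' deposited table lists 24985 genes with an adjusted p, of which 8243 stand at exactly 1, and 420 of the remaining 16742 were called lower in Exon2KO (2.51%). There the other 7 members had an adjusted p of 0.768 or more.

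Levels can be set against each other between genes only per length, here as CPM per kilobase of the deposited gene length. In WT the order from the highest was Socs3 (81.7 CPM per kilobase), Stat6 (77.7), Stat5b (72.2), Stat3 (36.1), Socs1 (30.3), Cish (29.8), Stat5a (22.5), Stat4 (11.2) and Socs2 (8.06). The libraries of the neighbours Socs3 and Stat6, Stat6 and Stat5b, and Socs1 and Cish overlapped, so these levels did not differ beyond their spread. In Exon2KO the order was the same except that Stat5a (25.0) came before Cish (23.6), and the libraries of these 2 genes overlapped. The gene length is that of all exons merged, so a gene with long rare isoforms is placed lower than its main transcript would be. This may hold for Socs2 and Stat3, with 14 annotated transcripts each.

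**Figure D3:**
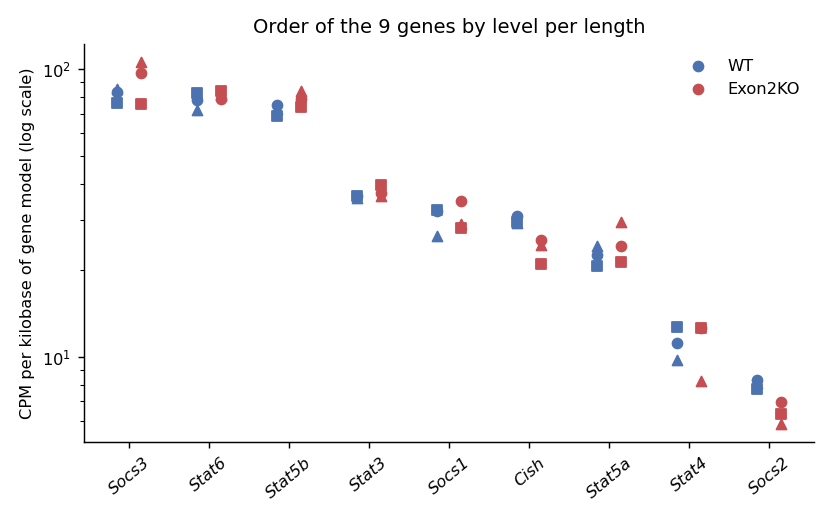
Level of each of the 9 genes in CPM per kilobase of gene length on a log axis, ordered by the WT mean, with 1 point per library and the genotypes in different colours (circle, square and triangle are the libraries numbered 2, 6 and 20). Socs3, Stat6 and Stat5b form the upper end and Socs2 the lower end in both genotypes.

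Stat5b was higher than Stat5a per kilobase in every library. In WT 2, 6 and 20 the ratio of Stat5a to Stat5b per kilobase was 0.301, 0.302 and 0.333, and in Exon2KO 2, 6 and 20 it was 0.307, 0.289 and 0.353. The ratio was highest in the libraries numbered 20 of both genotypes and overlapped between genotypes, at 0.312 ± 0.0181 against 0.316 ± 0.0328 (SD, n = 3 each). The log2 difference was 0.018, with a two-sided exact permutation p of 0.8, where 3 libraries against 3 cannot give less than 0.1.

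Stat5a, Stat5b and Stat3 lie side by side on chromosome 11 (GRCm38), Stat5b at chr11:100780731-100850724 on the minus strand, Stat5a at chr11:100859351-100885169 on the plus strand and Stat3 at chr11:100885098-100939540 on the minus strand. Stat3 and Stat5a overlap by 72 bases on opposite strands, and Stat6 (chr10:127642986-127660957) overlaps Nab2 by 40 bases. The strand setting of the counting is not given in the sources used here, so reads in these overlaps cannot be assigned. Of the 50-base windows of Stat5a and Stat5b transcripts, 8.52% and 11.0% also occur in another gene, mostly in the other Stat5 gene, and reads from them could have been dropped or counted for either. Stat4 (chr1:51987148-52107189) shares 21.7% of its windows, largely with the overlapping noncoding gene Gm28177, which had 42 counts over all 6 libraries against 4898 for Stat4. Cish (chr9:107296026-107302784) overlaps Gm17040 and Gm17041, with 10 and 0 counts, against 19471 for Cish, and 9.35% of its windows occur elsewhere. For Socs2 (chr10:95385362-95417180) the share was 4.58%, and for Socs1 (chr16:10782240-10785536), Socs3 (chr11:117966079-117970047) and Stat6 it was 0.

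Of the 36 pairs of members, 6 (16.7%) had a Pearson r of log2 CPM beyond 0.8 in size, where 8.54% of all pairs of 9366 protein-coding genes with a mean of at least 5 CPM did. These are descriptions over 6 libraries that share genotype and column number, with no test. For Stat5a and Socs3 r was 0.93 over the 6 libraries and 0.92 after the genotype means were removed, for Stat5b and Socs3 0.91 and 0.91, and for Stat5a and Stat5b 0.88 and 0.90, and all 3 genes were highest in Exon2KO 20. Stat4 ran opposite to Stat5a (-0.87 and -0.94), and Stat3 opposite to Cish (-0.85 and -0.83). Cish and Socs2 had r = 0.85, against 0.25 after the genotype means were removed. With those means removed, the pair with the largest r in size was Stat3 and Socs3 (-0.98, against -0.36 before), and Cish and Socs3 had 0.84 (-0.10 before). For r with the means removed, no share over all pairs of genes was taken, so these values have no background. The 11 immediate early genes (Fos, Jun, Egr1 and others, which rise within minutes of cell handling or stimulation) summed to 3542, 3777 and 6285 CPM in WT 2, 6 and 20 and to 3507, 3315 and 7038 CPM in Exon2KO 2, 6 and 20. Their sum was high in the same libraries numbered 20 in which Socs3 was highest and Stat4 lowest of each genotype, and its part in those levels was not tested.

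By Pearson r of log2 CPM over the 6 libraries to the other 9365 genes of that kind, the genes most like Socs2 were Arfip1 (r = 0.994), Cd37 (0.992) and Kctd17 (0.989), and 55 genes had r above 0.95. Their log2 fold changes were -0.081, -0.14 and -0.59 for Arfip1, Cd37 and Kctd17, with edgeR adjusted p of 0.920, 0.517 and 0.0719. A high r thus does not mean a change of like size. Socs2 was taken as the member with the smallest unadjusted p in the edgeR test without the block (0.00282). With the block Cish had a smaller edgeR p than Socs2 (7.84e-05 against 0.000158). The genes most like Stat4, the most variable member, were Dus4l (0.988), Hnrnph3 (0.987) and Adprm (0.985), and 52 genes had r above 0.95.

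Upstream of the STAT proteins, the interleukin-2 receptor chains that carry the alpha and beta subunits were lower in Exon2KO. Of 7 receptor genes of the common gamma chain family, edgeR called 2 lower and none higher (28.6%, against 2.33% of all genes). The 2 were Il2ra, the high-affinity alpha chain, and Il2rb, the signalling beta chain. In log2 fold change 6 of the 7 were below 0. Il2ra stood at 678, 587 and 663 CPM in WT 2, 6 and 20 and at 479, 379 and 487 CPM in Exon2KO 2, 6 and 20, without overlap. Its log2 fold change was -0.52 (edgeR adjusted p = 0.0429). Il2rb stood at 1435, 1392 and 1216 CPM in WT 2, 6 and 20 and at 1051, 989.9 and 969 CPM in Exon2KO 2, 6 and 20, also without overlap, and its log2 fold change was -0.43 (edgeR adjusted p = 0.0397). Il2rg, the common gamma chain itself, stood at 299 ± 22.6 CPM in WT and 274 ± 16.8 in Exon2KO (SD, 3 libraries each) and did not pass (edgeR adjusted p = 0.660). Il2, the ligand, had at most 0.445 CPM in any library and was not tested, as was the case for 8 of 11 ligand genes.

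Of 12 other cytokine receptor genes, edgeR called 1 higher and 2 lower (25%, against 2.33% of all genes). The interferon gamma receptor moved in opposite directions in its chains: Ifngr1, the ligand-binding chain, fell from 208 ± 1.44 to 165 ± 6.55 CPM (SD, n = 3 each, edgeR adjusted p = 0.0382), and Ifngr2, the other chain, rose from 45.7 ± 5.07 to 64.7 ± 4.01 CPM (edgeR adjusted p = 0.0339). Il10ra, the interleukin-10 receptor chain that signals through STAT3, fell from 133 ± 26.0 to 61.2 ± 13.9 CPM (edgeR adjusted p = 0.0451, and 0.224 with no filter on low counts). With the replicate block 5 of these 12 genes passed (41.7%, against 9.72% of all genes), 2 higher and 3 lower. The block added Il6ra, higher (edgeR adjusted p = 0.0360, against 0.426 without it), and Il10rb, lower (0.0273 against 0.163). None of the 4 Janus kinases, Stat2, 4 further SOCS genes, 4 PIAS inhibitors and 6 phosphatase or adaptor genes passed the edgeR test, DESeq2 or limma-voom. Unadjusted, 4 of these 19 genes were under 0.05 with edgeR, as were 1810 of all 14919 genes. With the replicate block Jak2, Socs5 and Pias3 passed, where 9.72% of all genes did. Jak1 was at 827 ± 66.0 and 919.6 ± 87.6 CPM, Jak3 at 635 ± 91.2 and 603 ± 70.5, and Jak2 at 206 ± 19.4 and 248 ± 16.1 in WT and Exon2KO (edgeR adjusted p = 0.212 without the block and 0.0203 with it).

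In all, 5 of 41 tested pathway genes that are not members passed (12.2%, against 2.33% of all genes), 1 higher and 4 lower, with a median log2 fold change of -0.0022, and 12 passed with the replicate block (29.3%, against 9.72% of all genes), 4 higher and 8 lower. Among them were 4 of the 7 common gamma chain family genes, with Il4ra higher and Il7r lower beside Il2ra and Il2rb. The 5 genes called without the block were all among the 19 receptor genes. The lists were chosen with earlier results of these data known, so their shares against all genes are descriptions only. The calls were narrow: of the 6 fits that each leave out 1 library, 1 kept Il2ra, 1 kept Il2rb, 0 kept Ifngr1, 2 kept Ifngr2 and 3 kept Il10ra. Leaving out WT 2 or Exon2KO 2 ended all 5 calls, with adjusted p up to 0.199.

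Genes known as STAT targets are downstream of the members. The 12 genes listed as STAT5 targets had a median log2 fold change of 0.028. With edgeR 2 of them were called lower and none higher (16.7%, against 2.33% of all genes). They were Il2ra, counted above among the receptors, and Bcl2l1, which encodes the survival protein BCL-XL and fell from 52.2 ± 5.15 to 33.1 ± 1.20 CPM (SD, n = 3 each, log2 fold change -0.65, edgeR adjusted p = 0.00915). Its call was lost only without Exon2KO 2 among the 6 fits that leave out 1 library (adjusted p = 0.0657). With the replicate block 5 of the 12 passed (41.7%, against 9.72% of all genes), 2 higher and 3 lower. Bcl2, another survival gene, was then higher (log2 fold change 0.60, edgeR adjusted p = 0.00028, against 0.213 without the block and 0.0104 with DESeq2), as was the kinase gene Pim2 (0.25, adjusted p = 0.044 with the block and 0.377 without). The kinase gene Pim1 was lower (-0.48, edgeR adjusted p = 0.00035 with the block and 0.803 without).

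Of 9 tested STAT3 targets, edgeR called 1 lower, Batf, and 1 higher, Il17a. Il17a, the T helper 17 cytokine, had a single count over the 3 WT libraries and 14, 16 and 11 counts in the Exon2KO ones, too few in WT for a fold. It passed the filter on low counts only through the Exon2KO libraries, so its counts are a description and its call is not read as a result. With at least 10 counts required in every library it was not tested. Batf, a transcription factor of activated T cells, fell from 78.7 ± 8.77 to 52.5 ± 8.01 CPM (SD, n = 3 each, edgeR adjusted p = 0.0459). None of 6 STAT4 targets passed the edgeR test, where 2 had an unadjusted p under 0.05, as did 1810 of all 14919 genes. DESeq2 called 1 of them, Il18rap, and limma-voom none. Of 3 tested STAT6 targets Gata3 fell, from 124 ± 12.2 to 88.9 ± 9.25 CPM (edgeR adjusted p = 0.0437). Over all lists 5 of 29 tested targets passed (17.2%, against 2.33% of all genes), 4 lower and 1, Il17a, higher, with a median log2 fold change of 0.07. With the replicate block 14 passed (48.3%, against 9.72% of all genes), 6 higher and 8 lower, and DESeq2 called 10. The block called 5 STAT5, 5 STAT3, 2 STAT4 and 2 STAT6 targets. The totals of 5, 14 and 10 and the shares of 17.2% and 48.3% include Il17a, whose call is not read as a result. They are descriptions only, as the lists were also chosen with earlier results of these data known. With at least 10 counts required in every library, where Il17a was not tested, 4 targets passed, as did 321 of 13169 genes. Il17a, Batf and Gata3 each kept their call in 1 of the 6 fits that leave out 1 library.

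**Figure D4:**
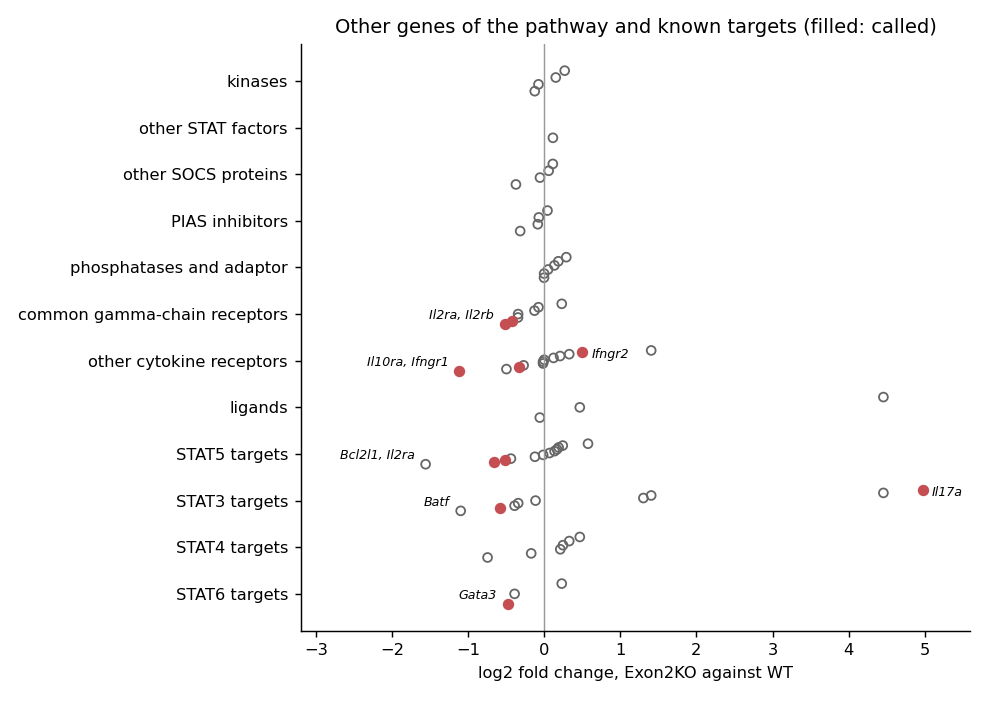
Log2 fold change in Exon2KO against WT (edgeR) of other JAK-STAT pathway genes and of known STAT targets, 1 circle per tested gene in 12 lists, with called genes filled and their names at the left or right end of the row. Fitted values of genes near 0 counts in WT, such as Il17a, depend on the prior count, and the call of Il17a is not read as a result. Il2ra and Il2rb lie at -0.52 and -0.43, while the 4 kinases lie between -0.12 and 0.27.

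The labelled cell type was checked against markers. The 6 Treg and CD4 T cell markers summed to 2999 to 3477 CPM in WT and 2767 to 3119 in Exon2KO. With edgeR 3 of the 6, Ctla4, Ikzf2 and Il2ra, were called lower (50%, against 2.33% of all genes). The other 3, Foxp3 among them, were above 0 in log2 fold change and were not called. The 6 B cell markers summed to 38.6 to 44.7 CPM in WT and 31.6 to 34.3 in Exon2KO, lower without overlap as Cish and Socs2 were, with 0 of 6 passing the edgeR test and 4 of 6 above 0 in log2 fold change. Without the B cell receptor gene Cd79b, which passed with DESeq2 and with the replicate block, the sums were 15.9, 17.2 and 24.2 CPM in WT 2, 6 and 20 and 16.4, 17.6 and 19.7 CPM in the Exon2KO libraries, which overlapped. Myeloid markers summed to 32.8 to 48.0 and 27.7 to 44.3 CPM, CD8 T and NK cell markers to 19.2 to 20.8 and 21.3 to 33.0, erythroid markers to 4.46 to 15.5 and 3.21 to 10.9, and stromal and endothelial markers to 164 to 190 and 188 to 225, with Col3a1 at 0 in every library. The CD8 T and NK cell sums were thus higher in Exon2KO without overlap, with 2 of their 5 genes above 0 in log2 fold change and 3 below. Of the 5 stromal and endothelial genes only 2 passed the filter on low counts, so their sum does not speak for all 5. None of the 23 tested genes of these lists of other cells passed the edgeR test or limma-voom. Unadjusted, 3 of them were under 0.05 with edgeR, as were 1810 of all 14919 genes. Lyz2, Pecam1 and Cd79b passed with the block, where 9.72% of all genes did. The part of these cells in the levels of Cish and Socs2 was not tested.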

How the data were processed

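RNA was extracted with an RNeasy kit and made into NEBNext Ultra libraries, per the labels' protocols. The submitters' processing notes name HISAT2 2.0.5, StringTie 1.3.3b, featureCounts 1.5.0-p3, DESeq2 1.16.1 and mm10 without roles, and strand setting and annotation release are not given in the sources used here. The authors deposited 1 table with raw counts per gene and sample, their group comparison on a log2 scale with p-values and adjusted p-values, and the gene length. The other 6 per-sample columns, in FPKM, were not used, so the planned Stat5a to Stat5b ratio was taken from counts per kilobase instead. Count columns were assigned to a genotype by their names, and their numbers could not be tied to the titled samples.

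Counts were filtered with filterByExpr, scaled with TMM and tested with edgeR 4.0.16 in R 4.3.3 (glmQLFit, robust), with Benjamini-Hochberg adjustment over 14919 genes and a threshold of 0.05. The median log2 fold change of all genes stayed within 0.013 of 0 under the scalings and leave-outs tried. Samples with the same column number deviated together from their genotype means (correlation 0.333, 0.407 and 0.536 for numbers 2, 6 and 20, each above the minimum of 0.1), so the numbers were taken as pairs, from the column names, and a fit with that block is given beside results it changes. Alternatives were no filter, 10 counts in every library, RLE and upper-quartile scaling, DESeq2 1.42.0, limma-voom 3.58.1, the block and leave-outs. Positions came from GENCODE release 21 (55480 of 55840 gene IDs matched, 55267 at the same position). The code was tested on simulated counts. Named genes are the 9 members and the called genes of the lists, with kinases and receptor chains that complete them. A planned pathway gene is not reported here and was left out of its list. The members and the lists were chosen with earlier results of these data known. Depth of 17998216 to 21003496 counts per library limits precision, and floors cover counting error only.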

Additional observations from a re-analysis of the deposited data

How the results depend on the processing

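Stat3, Stat5a, Stat5b, Stat6 and Socs3 kept their direction and stayed short of the threshold under every alternative named above. The sign of Stat4 turned with RLE size factors (0.00013), DESeq2 (0.0013) and without both libraries numbered 20 (0.082), and it ran from -0.11 to 0.17 when 1 library was left out. Socs1 turned without both libraries numbered 20 (-0.039) and ran from -0.093 to 0.070 with 1 library left out. The log2 Stat5a to Stat5b difference, 0.018, ran from -0.064 to 0.080. Cish passed with no filter (-0.34) and DESeq2 (-0.33), and Socs2 with no filter (-0.35). With the replicate block both passed (-0.34 each), and it changed no other member's call. With 1 library left out neither passed, at -0.40 to -0.27 for Cish (adjusted p 0.127 to 0.264) and -0.41 to -0.29 for Socs2 (0.133 to 0.249).

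Of all genes, 348 were called, against 617 with no filter, 640 with DESeq2 and 1450 with the replicate block, which held 347 of the 348. The count was 86 to 314 with 1 library left out, with 86 without Exon2KO 2, 131 without WT 2, 156 without WT 6 and 204 without WT 20. Other pathway genes called, 5, became 12 with the block, 3 without both libraries numbered 20 and 0 to 3 with 1 left out. STAT targets called, 5, became 4 with at least 10 counts in every library, where Il17a was not tested. They became 10 with DESeq2, 14 with the block and 0 to 5 with 1 library left out. Leave-one-out fits have fewer samples; otherwise the cause was not tested. With 3 libraries a genotype, the intervals ran from -0.10 to 0.22 for Stat3, the narrowest of the members, to -0.40 to 0.40 for Stat4, the widest.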
